A study of Mus musculus with 5 samples.

Results

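The collagen chain genes of the mouse were followed across the cells that line the vessels and coverings of the brain. Members were chosen by gene symbol alone, as every gene named Col, a number, the letter a and a second number, which gave 44 of the 32285 genes in the files. Of these, 32 had at least 100 unique molecular identifiers (UMIs, 1 per captured RNA molecule) over all nuclei kept and 12 had fewer, the lowest having 7. The data were single-nucleus RNA sequencing of sorted nuclei labelled as hippocampus and microglia, in 5 libraries of 1 mouse each. The study's methods speak of brain tissue, the labelled region was not checked against markers, and pituitary-marked nuclei, 2.16% of the nuclei of R241E replicate 1, go against a tissue of hippocampus alone. Nuclei had been sorted as positive for the DNA dye DAPI and negative for NeuN, a neuronal nuclear protein, and, according to the study's methods, for Olig2, a protein of oligodendrocyte-lineage nuclei. There were 2 libraries from mice with Tmem119-creERT2 and one R241E allele of the DNA sensor gene Cgas (wt/R241E, here R241E) and 3 from mice with Tmem119-creERT2 and Cgas wt/wt (here WT). Both groups thus carried the driver, which acts mainly in microglia and brain macrophages, and the study's methods give tamoxifen as the switch that turns the allele on. The results text of the study names heterozygous controls for this experiment while its methods and the sample titles name wt/wt, and the titles were followed. A point change cannot be read from gene counts, so the genotype was not checked here.

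Each collagen is a trimer of alpha chains wound into a triple helix. Fibrillar collagens (types I, III, V and XI) form the cables of connective tissue, type IV forms the sheet of basement membranes, and FACIT collagens attach to fibrils or to basement membranes. In the brain, collagens are sparse in the tissue itself and are known mainly from the meninges, where fibroblasts make them, and from the basement membranes around vessels, which pericytes, endothelial cells and astrocytes share. The 6 type IV chains lie as head-to-head gene pairs, Col4a1 with Col4a2, Col4a3 with Col4a4 and Col4a5 with Col4a6, and their products assemble as trimers of the first pair, of Col4a3, Col4a4 and Col4a5, or of Col4a5 with Col4a6.

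Nuclei kept numbered 9505 and fell into 24 clusters, made without the collagen genes, so that no member helped to define a class. Total deposited UMIs ranged from 4183709 to 10130667 per library and the median per nucleus from 2125.5 to 3364, and pairs of libraries shared 0 to 2 barcodes. R241E replicate 1 stood apart in holding 52 of 54 pituitary-marked nuclei and 135 of 191 nuclei of unnamed cluster 16. A class name stands for nuclei that carry the markers of that class. Microglia numbered 5374, astrocytes 570, oligodendrocytes 651, neurons 508 and border-associated macrophages 343, although the sort should have removed most neurons and oligodendrocytes. Mural cells numbered 607 and carried the pericyte markers Atp13a5 at 5734 UMIs per 1000000 of the class (CPM) and Vtn at 2982 CPM. The 4 smooth muscle markers summed to 70 CPM, with Acta2 and Cnn1 at 16.4 and 0 CPM. The 8 fibroblast markers summed to 1580 CPM in mural cells, with Pdgfra at 0, against 7697 CPM in fibroblasts. Endothelial cells numbered 60, with 7 to 17 per library, and carried Flt1 at 5156 CPM and Cldn5 at 1135 CPM. Their summed mural marker level ranged from 0 to 1716 CPM over the libraries, against 13610 to 16550 CPM in the mural cells themselves. WT replicate 1 held under 10 endothelial nuclei and was left out of their means and tests.

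Fibroblasts numbered 507 and split into a pial-type cluster of 239 nuclei, with Pdgfra at 1783 CPM and Dcn at 1280 CPM, and a Slc47a1-type cluster of 226 nuclei, with Slc47a1, a transporter gene, at 4814 CPM against 13.1 CPM in the pial-type. The Slc47a1-type nuclei shared Cped1 (2124 CPM) with the pial-type and had Bnc2 at 3219 CPM, but the fibroblast genes Dcn, Pdgfra and Lum stood at only 53.7, 12.4 and 9.29 CPM. Of their 7 subtype markers Slc22a6, Slc22a8 and Aldh1a2 were higher in the pial-type cluster, so the cluster is called here by its leading gene. Among the 7 pial-type markers, Fbln1 went the other way, at 29.1 CPM in the pial-type and 228.1 CPM in the Slc47a1-type. The third fibroblast cluster, with 42 nuclei, had 10 or more nuclei only in R241E replicate 2 and WT replicate 2. WT replicate 1 held 9 Slc47a1-type nuclei and was left out of that cluster's means and tests.

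Upstream sequence is shown for 2 chain pairs whose fibroblast patterns were opposite, Col4a5 and Col4a6, high in the pial-type cluster, and Col8a1 and Col8a2, high in the Slc47a1-type cluster. RefSeq promoter windows on GRCm38.p6 were matched for 35 of 44 members. Each sequence below is the part of the 250 bases before an annotated start that lies outside every RefSeq gene span, 5′ to 3′ on the gene's strand. Capitals mark CCAAT or GGGCGG on either strand (ATTGG or CCGCCC in reverse). TATAAA was searched as well and is in none of the 4.
Col4a5 (chrX:141475169-141475369, plus strand): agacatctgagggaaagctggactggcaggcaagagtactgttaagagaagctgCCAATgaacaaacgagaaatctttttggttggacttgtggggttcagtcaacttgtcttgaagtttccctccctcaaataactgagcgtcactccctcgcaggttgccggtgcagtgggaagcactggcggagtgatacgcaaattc
Col4a6 (chrX:141474096-141474326, minus strand): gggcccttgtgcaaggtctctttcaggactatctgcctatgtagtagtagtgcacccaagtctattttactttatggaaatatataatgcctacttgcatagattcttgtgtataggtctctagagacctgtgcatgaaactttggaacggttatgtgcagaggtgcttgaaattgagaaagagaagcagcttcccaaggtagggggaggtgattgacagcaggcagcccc
Col8a1 (chr16:57754738-57754987, minus strand): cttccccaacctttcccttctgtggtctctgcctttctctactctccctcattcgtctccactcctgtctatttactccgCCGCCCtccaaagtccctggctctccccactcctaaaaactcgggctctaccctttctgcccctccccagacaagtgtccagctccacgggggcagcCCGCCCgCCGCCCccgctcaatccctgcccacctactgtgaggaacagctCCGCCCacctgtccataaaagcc
Col8a2 (chr4:126286544-126286793, plus strand): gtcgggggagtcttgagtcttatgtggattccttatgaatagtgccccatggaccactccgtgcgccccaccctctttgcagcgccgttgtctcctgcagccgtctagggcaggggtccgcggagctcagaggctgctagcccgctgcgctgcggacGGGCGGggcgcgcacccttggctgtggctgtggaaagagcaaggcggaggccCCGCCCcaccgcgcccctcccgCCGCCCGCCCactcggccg
The Col8a1 and Col8a2 windows each held 4 GGGCGG matches, 2 of those in Col8a2 overlapping, the Col4a5 stretch shown held 1 CCAAT and the Col4a6 stretch none of these motifs. Their full windows of 250 bases each held 1 GGGCGG as well, in the bases next to the start that are not shown. Among 32851 RefSeq windows of 250 bases, 32.7% held GGGCGG, 33.8% CCAAT and 12.4% TATAAA. G and C made up 49.8% and 45.5% of the Col4a5 and Col4a6 stretches and 60.8% and 70.0% of those of Col8a1 and Col8a2. The annotated spans of Col4a1 and Col4a2 (chromosome 8) overlap by 85 bases and those of Col4a4 and Col4a3 (chromosome 1) by 114 bases, so the windows of Col4a1, Col4a2 and Col4a4 lie within transcribed sequence and are not shown, whereas 1274 bases separate Col4a6 from Col4a5.

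Collagen transcripts were concentrated in fibroblasts. Summed over the members, the collagen level was 6949 ± 309.8 CPM in pial-type fibroblasts (SD, n = 5 libraries), 4112 ± 915.9 CPM in the Slc47a1-type (n = 4), 1593 ± 170.8 CPM in mural cells (n = 5), 561.3 ± 66.3 CPM in endothelial cells (n = 4) and 482 ± 16.5 CPM in microglia (n = 5). Fibroblasts gave 34.5% of the 26374 collagen UMIs from 6.15% of all UMIs. Microglia gave 26.8%, being 50.4% of all UMIs. Unnamed cluster 16, which held most of its nuclei in R241E replicate 1 and fitted 2 marker lists almost equally, oligodendrocyte precursors (mean log2 fold 3.065) and tanycytes (2.843), stood at 3867 ± 927.5 CPM (n = 5), of which Col23a1, a transmembrane collagen, made up 2249 ± 650.3 CPM. Of the 32 members with at least 100 UMIs, 12 had their highest class mean in pial-type fibroblasts, 6 in the Slc47a1-type, 4 in unnamed cluster 16, 2 each in mural cells, microglia and oligodendrocytes, and 1 each in endothelial cells, astrocytes, unnamed cluster 17 and monocytes or neutrophils.

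**Figure D1:**
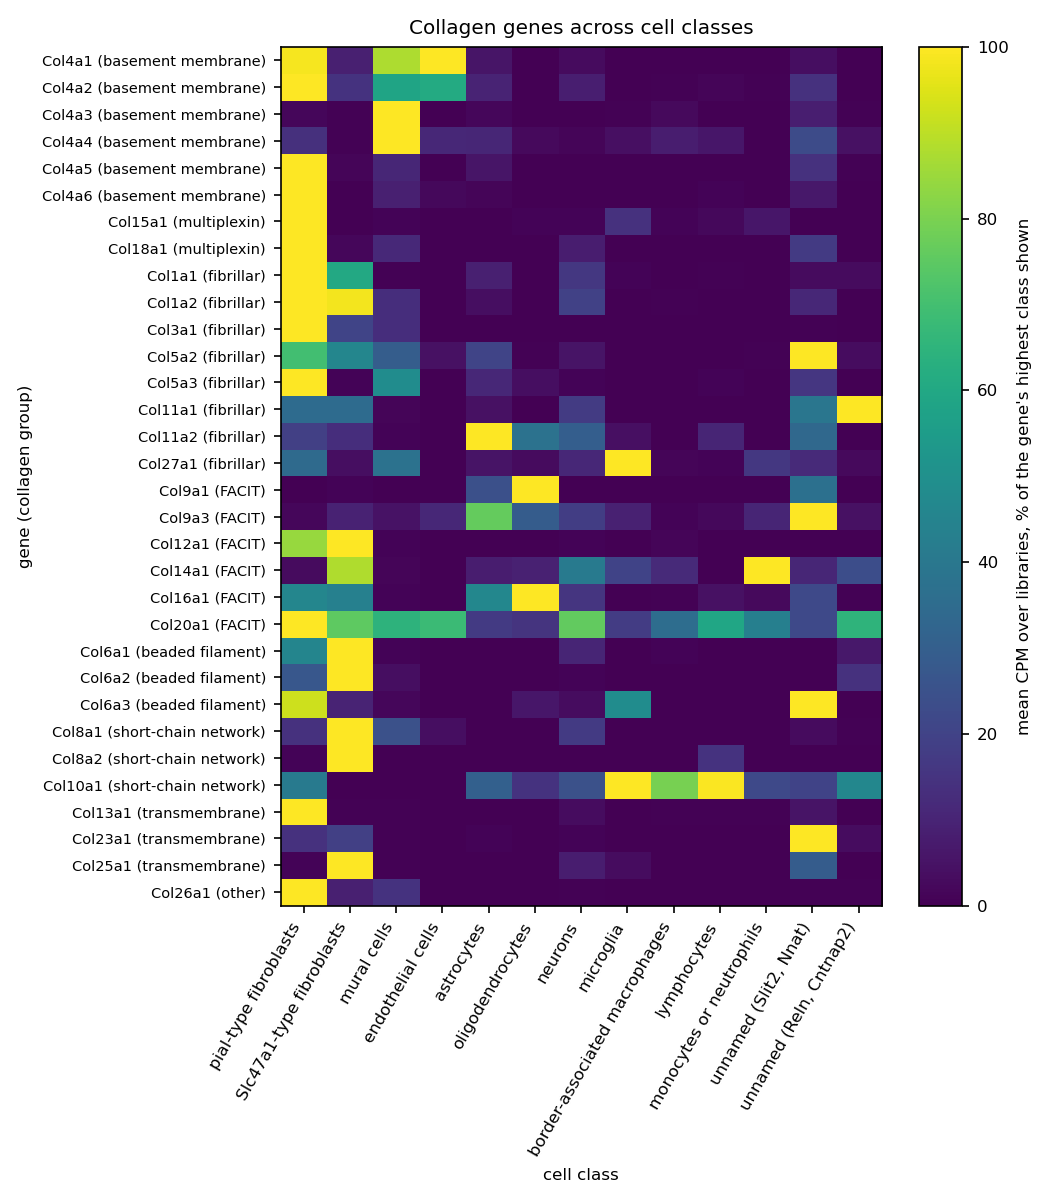
Mean level over libraries of each collagen gene with at least 100 UMIs (rows, with its collagen group) in each class (columns), coloured as the percent of that gene's level in its highest class shown, so that colours compare classes within a row and not genes with each other. Bright cells gather in the pial-type and Slc47a1-type fibroblast columns, with Col4a3 and Col4a4 bright in mural cells, Col27a1 in microglia and Col23a1 in unnamed cluster 16 (marked Slit2, Nnat).

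The type IV chains separated the barrier classes. Col4a1 and Col4a2, the ubiquitous chains of basement membranes, were found at similar levels in 3 classes. Col4a1 stood at 300.2 and 240.3 CPM (R241E) and 253.3, 220.7 and 392.8 CPM (WT) in pial-type fibroblasts. In mural cells it stood at 215.8 and 219.4 CPM (R241E) and 324.5, 215.1 and 274.7 CPM (WT). In endothelial cells it stood at 115.9 and 321 CPM (R241E) and 362.2 and 343.1 CPM (WT replicates 2 and 3). These 3 ranges overlapped, and the Slc47a1-type lay apart from them with 14 to 41.3 CPM. Col4a2 gave the same arrangement, at 277.1 ± 68.3 CPM (pial-type), 161.7 ± 20.1 CPM (mural), 169.7 ± 84.8 CPM (endothelial) and 41 ± 18.8 CPM (Slc47a1-type).

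Col4a5 and Col4a6, whose products assemble in a shared trimer, were highest in the pial-type fibroblasts. Col4a6 stood there at 1041 and 1247 CPM (R241E) and 1303, 1446 and 1546 CPM (WT). In mural cells it stood at 194.7 and 156.2 CPM (R241E) and 129.8, 29.9 and 74.9 CPM (WT), so the 2 classes did not overlap. Only 2 Col4a6 UMIs were counted in Slc47a1-type fibroblasts over all libraries. After thinning each nucleus to 1000 UMIs, 61.8% of 233 pial-type nuclei had a Col4a6 UMI, against 0.446% of 224 Slc47a1-type and 0% of 340 border-associated macrophage nuclei, a class that should lack it. Unthinned shares were 83.3%, 0.885% and 0%, at median depths of 2644, 4093 and 2448 UMIs. Col4a5 stood at 1390 ± 112 CPM in the pial-type (1249 to 1554 CPM), 147.7 ± 56 CPM in mural cells and 20.8 ± 14.9 CPM in the Slc47a1-type. Both were also counted in astrocytes, Col4a5 at 80.9 ± 15.7 CPM and Col4a6 at 20.4 ± 3.21 CPM (n = 5).

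Col4a3 and Col4a4, known from the basement membranes of kidney, lung and inner ear, were highest in mural cells. Col4a3 stood at 236.9 and 197.1 CPM (R241E) and 220.6, 125.5 and 199.8 CPM (WT), and mural cells held 81.8% of all Col4a3 UMIs. The next class, unnamed cluster 16, did not reach above 73.6 CPM in any library, and pial-type fibroblasts did not reach above 9.69 CPM. Col4a4 stood at 105.5 and 66.9 CPM (R241E) and 155.8, 83.6 and 93.6 CPM (WT) in mural cells, against 14.2 ± 13.5 CPM in the pial-type. The mural nuclei therefore held UMIs of all 6 type IV chains. The fibroblast markers Pdgfra and Bnc2 were at 0 UMIs in these nuclei and Lama1, a pial-type marker, was at 11 UMIs, while Cped1 stood at 1136 CPM.

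**Figure D2:**
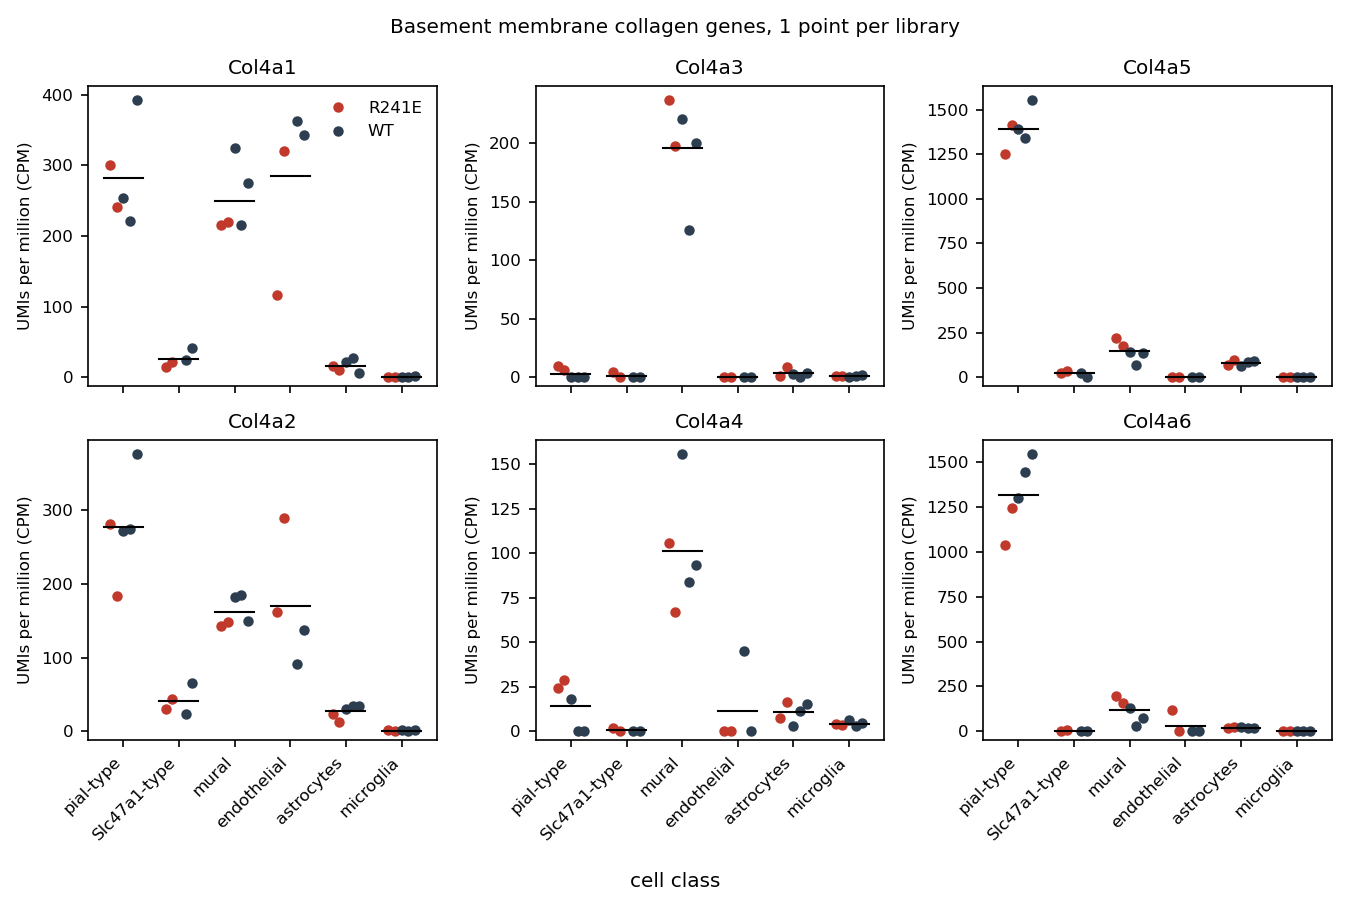
Levels (CPM, linear axes that differ between panels) of the 6 type IV collagen genes in 6 classes, with 1 point per library of 10 or more nuclei in the class, R241E in red and WT in dark blue, and the mean over libraries as a line. Col4a1 and Col4a2 overlap in pial-type fibroblasts, mural cells and endothelial cells, Col4a3 and Col4a4 are highest in mural cells, and Col4a5 and Col4a6 are above 1000 CPM in pial-type fibroblasts and below 250 CPM in the other classes plotted.

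Col15a1 and Col18a1, the multiplexins that join basement membranes to the matrix around them, followed the pial-type cluster. Col15a1 stood at 377.7 and 583.6 CPM (R241E) and 434.2, 494.7 and 476.3 CPM (WT) there, and 1 UMI was counted in the Slc47a1-type and 4 in mural cells. Col18a1 stood at 111.8 ± 26.4 CPM in the pial-type and 13.1 ± 4.93 CPM in mural cells. Of the fibrillar chains, Col1a2 stood at 414.1 ± 74.2 CPM in the pial-type and 406.7 ± 70.8 CPM in the Slc47a1-type, ranges that overlapped, against 55 ± 22.4 CPM in mural cells. Col1a1, the partner of Col1a2, stood at 158.4 ± 31.7, 95.7 ± 5.44 and 1.21 ± 1.73 CPM in these 3 classes. In the Slc47a1-type it was counted in 51 of 226 nuclei, with 25 of 92 UMIs (27.2%) in 1 nucleus. Both type I chains were thus higher in either fibroblast cluster than in mural cells. Col3a1 stood at 309.2 ± 103.8 CPM in the pial-type, 63.9 ± 33.7 CPM in the Slc47a1-type and 40.2 ± 30.2 CPM in mural cells. Col5a3, a minor chain of type V collagen, was counted in the pial-type (106 ± 45.5 CPM) and in mural cells (51.7 ± 32.6 CPM) with overlapping ranges.

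Both fibroblast clusters thus held type I collagen, but the chains around it differed. Col25a1, a transmembrane collagen, had its highest class mean in the Slc47a1-type, at 1204 and 551.8 CPM (R241E) and 2444 and 1099 CPM in WT replicates 2 and 3. The pial-type nuclei held 4.84 to 18.1 CPM of it, and unnamed cluster 16 ranged from 0 to 1144 CPM and overlapped the Slc47a1-type. Col25a1 was uneven between Slc47a1-type nuclei, being counted in 109 of 226, with 132 of 1101 UMIs (12%) in 1 nucleus. Col8a1 and Col8a2, the short-chain collagens of type VIII, stood at 450 ± 150.5 and 97.7 ± 7.31 CPM in the Slc47a1-type. Col8a2 was at 0 UMIs in mural cells and at 1 UMI in the pial-type, whereas Col8a1 was also counted in mural cells (112 ± 55.5 CPM) and in the pial-type (63.5 ± 17.5 CPM). Col6a1 and Col6a2, chains of beaded filaments, stood at 126.2 ± 48.9 and 122.9 ± 35.9 CPM in the Slc47a1-type and at 57.5 ± 11.8 and 33.3 ± 20.4 CPM in the pial-type. The FACIT collagen Col12a1 stood at 427.2 ± 129.8 and 360.6 ± 153.2 CPM, ranges that overlapped. Col13a1, a transmembrane collagen, stood at 276.9 ± 102.3 CPM in the pial-type and 2.11 ± 2.44 CPM in the Slc47a1-type. In the third fibroblast cluster Col26a1 stood at 662 ± 189.8 CPM and Col14a1 at 187.4 ± 14.8 CPM (n = 2), while Col4a6 was counted at 63.2 and 33 CPM in those libraries and with 34 UMIs in the 5 nuclei of R241E replicate 1.

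**Figure D3:**
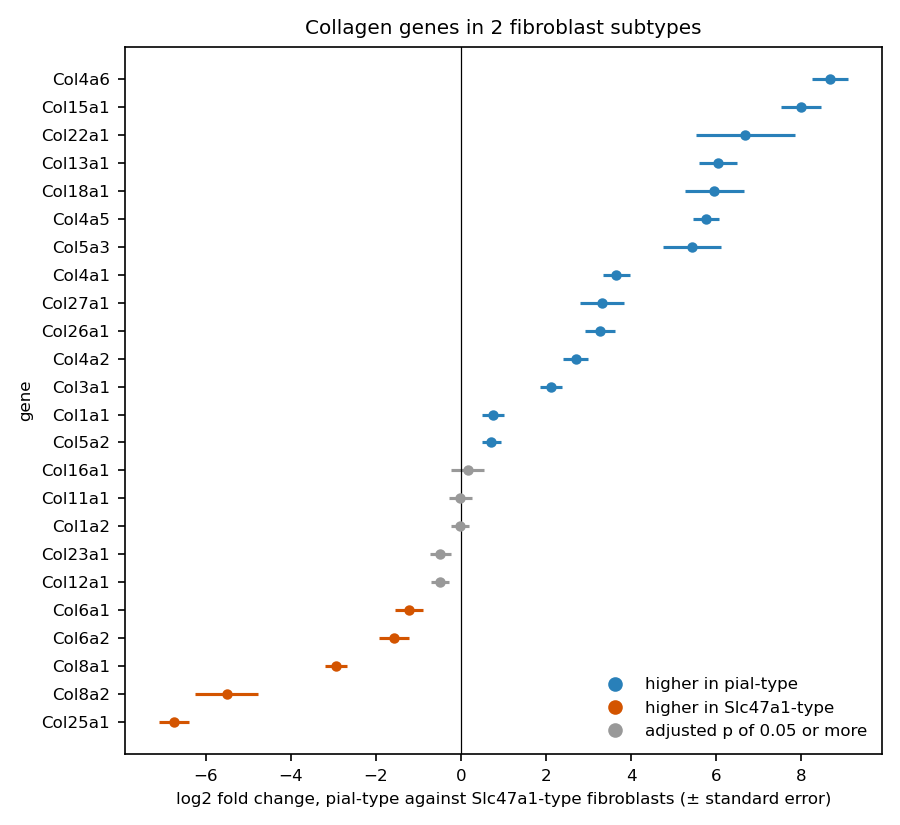
Fitted log2 fold change (points, with bars of 1 standard error) of the 24 tested collagen genes between pial-type and Slc47a1-type fibroblasts in 4 libraries, positive where the pial-type is higher, coloured by whether the adjusted p was under 0.05. Col4a6 lies farthest to the right, Col25a1 farthest to the left, and 5 genes, Col1a2 among them at −0.02, lie near 0; folds of genes with 0 to 2 UMIs in a cluster depend on the prior count.

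Glial and immune classes had collagen patterns of their own. Col27a1, a fibrillar collagen, stood in microglia at 315 and 338.9 CPM (R241E) and 310.5, 301.2 and 283.3 CPM (WT), and microglia held 91.0% of its UMIs. Mural cells followed with 38.9 to 154.8 CPM, and pial-type fibroblasts with 45.7 to 158.8 CPM. A Col27a1 UMI was found in 25.3% of 5230 microglia thinned to 1000 UMIs and in 0.294% of 340 thinned border-associated macrophages. The unthinned shares were 49.0% and 0.875% at median depths of 2469 and 2448 UMIs. The part of free RNA in these shares was not tested. Col15a1 and Col25a1 were also counted in microglia, at 68.2 ± 9.84 and 43 ± 8.45 CPM, against 3.94 ± 3.69 CPM and 0 in border-associated macrophages. Microglia held 72.6% of the Col15a1 UMIs, whereas the CPM level was highest in the pial-type. Col6a3 was low in all classes, with 81.3% of its UMIs in microglia at 12.6 ± 4.7 CPM. Oligodendrocytes and astrocytes held other chains, of which Col16a1, Col9a1 and Col9a3 belong to FACIT collagens and Col11a2 to fibrillar type XI. In oligodendrocytes, Col16a1 stood at 128.8 ± 51.6 CPM and Col9a1 at 50.5 ± 14.7 CPM. In astrocytes, Col11a2 stood at 58.8 ± 20.8 CPM and Col9a3 at 40.3 ± 6.73 CPM. Col11a1 was highest in unnamed cluster 17, marked by Reln and Cntnap2, at 401.5 ± 71.8 CPM. The neuron markers summed to 6713 CPM in that cluster and to 6564 CPM in the neurons, whose values and tests leave it out. Its mean log2 fold for the neuron list, 1.978, lay under the limit of 2 for a name. Border-associated macrophages and lymphocytes held 60.4 ± 14.5 (n = 5) and 87.3 ± 49.7 (n = 3) CPM of collagen in all.

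The 12 members under 100 UMIs were Col19a1, Col5a1, Col24a1, Col9a2, Col28a1, Col6a6, Col6a5, Col6a4, Col7a1, Col22a1, Col2a1 and Col17a1. Of these, Col22a1 was counted with 44 of its 82 UMIs in the pial-type and with 0 in the Slc47a1-type, Col19a1 was highest in neurons and Col28a1, with 41 UMIs, in mural cells. Over 11 classes, Pearson's r between log2 class means was 0.98 for Col4a1 with Col4a2, the highest of 496 pairs of members with at least 100 UMIs. Chains of different collagen types also stood high, with 0.979 for Col3a1 with Col26a1, 0.973 for Col12a1 with Col23a1 and for Col11a1 with Col1a1, and 0.953 for Col5a3 with Col4a5. For partner chains it was 0.955 for Col6a1 with Col6a2, 0.927 for Col1a1 with Col1a2, 0.922 for Col4a3 with Col4a4, 0.906 for Col4a5 with Col4a6 and 0.576 for Col8a1 with Col8a2. These are descriptions over classes that come from the same libraries and differ in depth.

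Class contrasts were then tested on UMIs summed per library and class, with the library as a block because both classes came from the same mouse (edgeR). A gene had to pass a filter on low counts, which a gene can do through the class where it is high, so the counts of members describe the fits and are not evidence of a direction. Between fibroblasts and mural cells 26 members were tested. Of these, 20 were higher in fibroblasts and 4 lower, while of all 6933 genes tested 21.3% were higher and 16.1% lower. The median log2 difference was 2.58 over the tested members and 0.02 over all genes. The 4 lower in fibroblasts were Col4a3 (log2 −5.18, SE 0.36, adjusted p = 1.51e-15), Col4a4 (−3.56, SE 0.39, adjusted p = 5.21e-10), Col27a1 (−1.33, SE 0.28, adjusted p = 0.000153) and Col4a1 (−0.84, SE 0.18, adjusted p = 0.000226). Col4a2 (−0.24, SE 0.20, adjusted p = 0.381) and Col5a3 (0.05, SE 0.31, adjusted p = 0.931) did not pass. The fibroblast sums pooled the clusters, and in the pial-type alone the levels of Col4a1 and Col27a1 overlapped those of mural cells. Counted over all libraries, the fibroblast level was 84.7 times the mural level for Col25a1 (95% counting interval 42.9 to 197), 7.11 times for Col1a2 (5.46 to 9.42), 3.70 times for Col4a6 (3.12 to 4.43) and 3.29 times for Col4a5 (2.81 to 3.87). Col8a2 was at least 21.0-fold higher, measured against a floor of 3 UMIs over the mural cells of all libraries. Such intervals and floors cover counting error only.

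Against endothelial cells, in the 4 libraries with 10 or more of them, 20 members were tested. Of these, 18 were higher in fibroblasts and 0 lower, beside 21.0% higher and 13.7% lower of 4763 genes. A positive shift of all genes, with a median log2 of 0.28, ran in the same direction. The 2 members that did not pass were Col4a1 (−0.63, SE 0.40, adjusted p = 0.225) and Col4a2 (−0.04, SE 0.44, adjusted p = 0.957). Most of the others were at 0 UMIs in the endothelial cells, so only lower bounds can be given, at least 26.3-fold for Col25a1, at least 22.4-fold for Col4a5, at least 16.2-fold for Col1a2 and at least 7.43-fold for Col15a1, over a floor of 23.9 CPM. Col4a6 was counted with 5 UMIs in 1 endothelial nucleus, of R241E replicate 1. Levels under that floor were not detectable at this depth and are not shown to be absent.

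Between mural and endothelial cells 8 members were tested, of which 6 were higher in mural cells and 0 lower, beside 20.5% higher and 18.8% lower of 3378 genes. Mural cells stood at least 8.47-fold above endothelial cells for Col4a3, at least 7.08-fold for Col4a5 and at least 5.93-fold for Col27a1. They stood 8.04 times as high for Col8a1 (2.18 to 67.1) and 7 times for Col5a2 (1.89 to 58.5), each on 2 endothelial UMIs, and 3.49 times for Col4a6 (1.46 to 10.9). Col4a1 (log2 0.17, SE 0.36, adjusted p = 0.742) and Col4a2 (0.20, SE 0.41, adjusted p = 0.743) did not pass. Without the library block 3 members were higher in place of 6, and without R241E replicate 2 Col4a6 no longer passed (adjusted p = 0.0918).

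Between the fibroblast clusters, in 4 libraries, 24 members were tested, with 14 higher in the pial-type and 5 lower, beside 17.8% higher and 17.8% lower of 4591 genes. The clusters had been drawn on the other genes, so the share over all genes is not that of a comparison of independent groups. The 5 lower members were Col25a1 (log2 −6.74, SE 0.36, adjusted p = 4.81e-20), Col8a2 (−5.51, SE 0.73, adjusted p = 2.58e-08), Col8a1 (−2.94, SE 0.26, adjusted p = 5.63e-13), Col6a2 (−1.57, SE 0.35, adjusted p = 0.000289) and Col6a1 (−1.22, SE 0.33, adjusted p = 0.00255). By counts, the pial-type level was 58.0 times that of the Slc47a1-type for Col4a5 (38.0 to 93.0), 13.9 times for Col4a1 (8.67 to 23.7), 11.5 times for Col26a1 (7.03 to 20.0) and 7.19 times for Col4a2 (4.97 to 10.7). The ratio was 594 for Col4a6 (164 to 4920) and 444 for Col15a1 (79.1 to 17600), each resting on 1 or 2 UMIs in the Slc47a1-type. Col22a1 was at least 20.6-fold higher in the pial-type. Not passing were Col1a2 (−0.02, SE 0.21), Col11a1 (−0.02, SE 0.27), Col16a1 (0.16, SE 0.38), Col23a1 (−0.48, SE 0.24) and Col12a1 (−0.50, SE 0.21, adjusted p = 0.0637). Col12a1 did pass, lower in the pial-type, without R241E replicate 1 (adjusted p = 0.0245) and in 2 other alternatives, and Col23a1 without WT replicate 3 (0.0199). Of the called members, Col6a1 did not pass by DESeq2 (0.0572), Col5a2 not by DESeq2 (0.197) or with no filter on low counts (0.0675), and Col1a1 not in 4 of 11 alternatives, among them without R241E replicate 1 (0.12) and without R241E replicate 2 (0.16).

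Genes that make, process and bind collagen were read from 5 fixed lists. Only the collagen genes were left out of the clustering, so genes of these lists could help to draw the classes compared. Their differences between classes are therefore descriptions and not evidence apart from the clusters. Of all 4591 genes tested between the fibroblast clusters, 17.8% were higher in the pial-type and 17.8% lower. Of 12 basement membrane partners, 10 were tested between the fibroblast clusters and 8 were higher in the pial-type and 0 lower, with a median log2 of 2.55 against 0.02 over all genes. They included the laminin chains Lamc1 (737.1 ± 45.8 against 81.6 ± 40.3 CPM, n = 4) and Lama4 (320.8 ± 37.1 against 71.7 ± 33.5 CPM), the nidogen Nid1 (273.6 ± 41.8 against 71.1 ± 34 CPM) and Hspg2, which encodes perlecan (99.8 ± 17.8 against 15.1 ± 8.03 CPM). Of 12 genes of processing and crosslinking, 3 were tested. The procollagen proteinase Adamts2 (278.4 ± 64.3 against 71.4 ± 15.9 CPM) and Tll1 (306.1 ± 59.1 against 2.09 ± 4.18 CPM) were higher in the Slc47a1-type, and Pcolce, an enhancer of such proteinases, in the pial-type (159.4 ± 60.7 against 50.7 ± 19.4 CPM). Of 20 genes of synthesis and folding, 7 were tested and the lysyl hydroxylase gene Plod2 alone passed, higher in the pial-type. Of 10 collagen receptors, 5 were tested, with Itga1 higher in the pial-type and Ddr2 and Itga10 in the Slc47a1-type. Of 7 genes of uptake and breakdown, 3 were tested, with Mmp14 higher in the pial-type and Mrc2 in the Slc47a1-type.

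Mural cells differed from fibroblasts in the partners of type IV collagen as well. Of 10 basement membrane partners tested, 5 were higher in mural cells (Lamc1, Lamc3, Agrn, Lama4 and Nid1) and 2 in fibroblasts (Hspg2 and Nid2). Of all 6933 genes tested, 16.1% were higher in mural cells and 21.3% in fibroblasts. The fibroblast sums pooled the clusters, and Lamc1, Lama4 and Nid1 were lower in the Slc47a1-type than in the pial-type. The part of this mix in the counts was not tested. Agrn, which encodes agrin, stood at 289.1 ± 60.9 CPM in mural cells against 98.1 ± 21.9 CPM in fibroblasts (n = 5). The integrin chain gene Itga1, whose product binds collagens, stood at 1409 ± 148.3 against 60.5 ± 21.6 CPM. P3h2, a prolyl hydroxylase gene known to act on type IV collagen, stood at 128.7 ± 23.6 against 9.75 ± 7.34 CPM, and was one of 2 genes of synthesis and folding higher in mural cells, with P4ha1, of 10 tested, P4hb being the one that was lower. Of the other lists, 3 of 4 processing genes were higher in fibroblasts and Loxl3 in mural cells, 3 of 7 receptor genes were higher on each side, and of 3 uptake genes Mrc2 and Mmp14 were higher in fibroblasts and Fap in mural cells. Against endothelial cells, Colgalt2, which adds galactose to collagen chains, was lower both in fibroblasts (10.5 ± 9.42 against 182.9 ± 40.1 CPM, n = 4) and in mural cells (27.4 ± 14.8 CPM), and the laminin chain gene Lama5 was lower in fibroblasts. Over the 5 lists together, 12 of 25 tested genes were higher and 4 lower in fibroblasts than in endothelial cells, beside 21.0% higher and 13.7% lower of all genes, so the share lower was near that of all genes. In mural cells against endothelial cells 11 of 19 were higher and 1 lower, beside 20.5% and 18.8% of all genes.

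R241E libraries were compared with WT libraries within each class with at least 20 nuclei in every library. In fibroblasts 24 members were tested and 0 passed by edgeR or DESeq2, with 6 at an unadjusted p under 0.05, beside 0.0170% of 5874 genes called. Nearest was Col8a1, at 419.4 and 353.9 CPM in R241E and 64, 231.7 and 152.4 CPM in WT libraries, values that did not overlap (log2 1.30, SE 0.31, adjusted p = 0.214). Col4a6 stood at 343.5 and 468.3 CPM against 767.6, 776.5 and 722.7 CPM (−0.85, SE 0.22, adjusted p = 0.293) and Col4a5 at 393.2 and 541.2 CPM against 842.2, 735.8 and 726.6 CPM (−0.67, SE 0.22, adjusted p = 0.467). The pial-type, high in Col4a5 and Col4a6, made up 34.7% and 46% of R241E fibroblasts and 70%, 59.7% and 54.8% of WT fibroblasts, which did not overlap. The Slc47a1-type, high in Col8a1, made up 62.3% and 38.7% against 30%, 25.4% and 40.9%, which overlapped. The part of this make-up in the Col8a1 value was not tested. Within the pial-type cluster alone, 17 members were tested and 0 passed by either tool (3 at an unadjusted p under 0.05), beside 0.0951% of 3153 genes. Col4a6 differed there by log2 −0.33 (SE 0.22, adjusted p = 0.934) and Col4a5 by −0.10 (SE 0.22, adjusted p = 0.989). Leaving out 1 library gave 0 to 4 members called in fibroblasts, and without R241E replicate 2 both Col8a1 (1.43, adjusted p = 0.000587) and Col4a6 (−1.06, adjusted p = 0.0477) passed, as Col8a1 did without R241E replicate 1 (adjusted p = 0.0335). With fewer than 20 endothelial or Slc47a1-type nuclei in some libraries, genotype was not tested there.

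In mural cells 11 members were tested and 0 passed by either tool, with 2 at an unadjusted p under 0.05, beside 0% of 3862 genes. Those 2 were Col4a6 (194.7 and 156.2 CPM against 129.8, 29.9 and 74.9 CPM, log2 1.36, SE 0.37, adjusted p = 0.366) and Col4a5 (0.84, SE 0.31, adjusted p = 0.999). The fibroblast and mural differences of Col4a6 thus ran in opposite directions. Whether genotype differences differed between these 2 classes was tested for all genes in 1 model. That model used the same libraries as the fits within each class, so it is not separate evidence from them. Of 26 members 1 passed, Col4a6 (log2 −2.25, SE 0.41, adjusted p = 0.00231), beside 0.0288% of 6933 genes. Col4a5 gave −1.53 (SE 0.37, adjusted p = 0.135). With pial-type nuclei in place of all fibroblasts, a choice made after seeing the data, Col4a6 gave −1.79 (SE 0.39, adjusted p = 0.0811), and it did not pass without R241E replicate 1 (−1.85, adjusted p = 0.12), without WT replicate 2 (−1.78, adjusted p = 0.362) or by DESeq2 (−2.19, adjusted p = 1).

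**Figure D4:**
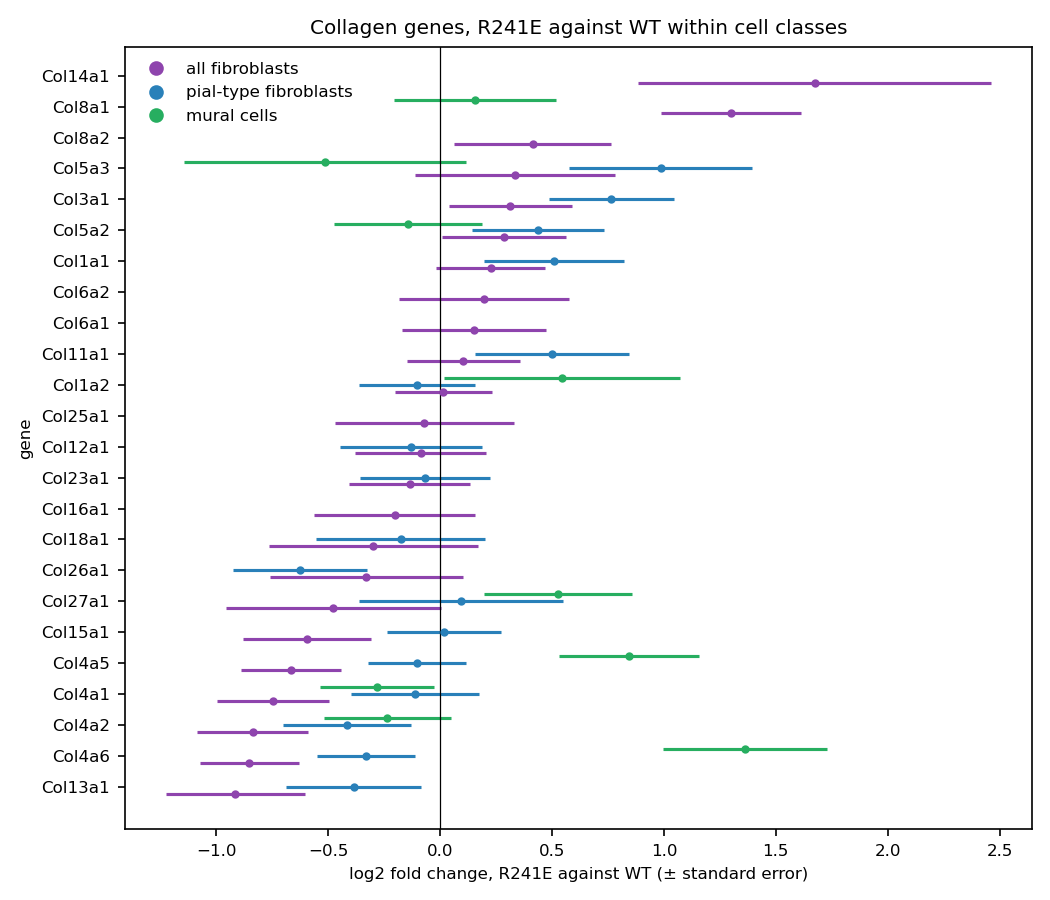
Fitted log2 fold change (points, with bars of 1 standard error) of collagen genes between 2 R241E and 3 WT libraries in all fibroblasts, in pial-type fibroblasts alone and in mural cells, positive where R241E is higher. No point passed an adjusted p of 0.05, and Col4a6 lies at −0.85 in all fibroblasts, −0.33 in the pial-type and 1.36 in mural cells.

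In microglia 10 members were tested and 1 passed, by edgeR and by DESeq2. Of all 12720 genes 9.27% were called, a share near that of the members. Col9a3, a FACIT chain, stood at 10.1 and 7.62 CPM (R241E) and 2.43, 1.85 and 2.7 CPM (WT) (log2 1.97, SE 0.39, adjusted p = 0.00354), on 66 UMIs in all. It did not pass without R241E replicate 1 (1.69, adjusted p = 0.192). Of the microglial clusters, cluster 15, with 139 R241E and 8 WT nuclei, held 26.2 CPM in R241E libraries, and cluster 1, with 961 R241E and 223 WT nuclei, held 8.16 CPM in R241E and 0 UMIs in WT libraries (floor 4.27 CPM). Most WT microglia lay in clusters 3 and 4, with 1632 and 1658 WT nuclei at 2.37 and 2.55 CPM, where the 94 and 35 R241E nuclei held 0 UMIs (floors 14 and 39.7 CPM). In cluster 2, the one with like numbers (299 and 325), 6 UMIs gave 6.66 CPM in R241E and 2 UMIs gave 2.23 CPM in WT libraries. The genotypes thus lay largely in different microglial clusters, and a difference within a cluster was not tested. All 6 oligodendrocyte markers were detected in microglia and their summed level also moved with genotype, at 214.8 and 300.1 CPM in R241E and 127.1 to 141.8 CPM in WT libraries. The 7 astrocyte markers summed to 266.8 to 290.5 CPM and 264.7 to 338.4 CPM. Their part in the Col9a3 difference was not tested. The abundant microglial collagen Col27a1 gave log2 0.11 (SE 0.10, adjusted p = 0.59), Col15a1 −0.29 (SE 0.14, adjusted p = 0.269), Col25a1 −0.33 (SE 0.18, adjusted p = 0.32) and Col6a3 −0.71 (SE 0.30, adjusted p = 0.176). Of the lists fixed for collagen biology, Agrn (34.1 ± 8.66 against 15.1 ± 2.95 CPM) and the membrane-bound collagenase gene Mmp14 (18.1 ± 1.08 against 8.97 ± 1.35 CPM) were higher in R241E microglia. Nid2 was lower (12.2 ± 5.27 against 28.3 ± 1.08 CPM). Of 30 genes tested, 2 were thus higher and 1 lower, a share near the 9.27% called of all genes.

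In the other classes 0 members passed by edgeR or DESeq2. In astrocytes 10 were tested, with 1 at an unadjusted p under 0.05, Col11a2 (log2 −0.80, adjusted p = 0.42), beside 0.418% of 7894 genes. In oligodendrocytes 2 were tested, with Col16a1 at an unadjusted p under 0.05 (0.68, adjusted p = 0.841), beside 0.285% of 5613 genes. In neurons 5 were tested, with 3 at an unadjusted p under 0.05, beside 0.0140% of 7150 genes. Neuronal values rested on few nuclei, as R241E replicate 2 held 136 of its 150 Col1a2 UMIs and 69 of its 121 Col8a1 UMIs in 1 nucleus each, and Col25a1 stood at 459.6 CPM in R241E replicate 1 and at 0 to 40.3 CPM in the others. In border-associated macrophages no member had enough UMIs to be tested, beside 0.937% of 3947 genes called. Over these classes and the fibroblast and mural cells 0 genes of the 5 collagen lists passed.

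Summed over all nuclei of a library, collagen stood at 1147 and 1181 CPM (R241E) and 627.7, 747.6 and 714.8 CPM in WT libraries, groups that did not overlap. Of 38 members tested 2 passed, both higher in R241E, beside 2.52% of 16725 genes. Col5a2, a type V chain, stood at 66.2 and 58.1 CPM against 20.5, 23.5 and 23.5 CPM (log2 1.39, adjusted p = 0.0139), and Col3a1 at 18.2 and 24.8 CPM against 6.1, 7.25 and 6.05 CPM (1.64, adjusted p = 0.0349). In such sums a change in the number of cells of a type and in the RNA per cell cannot be told apart, but here the nuclei of each class could be counted. Fibroblasts made up 6.95% and 11.1% of R241E nuclei and 1.96%, 3.41% and 4.14% of WT nuclei, and mural cells 7.82% and 13.3% against 2.41%, 4.22% and 5.25%. Unnamed cluster 16, where Col5a2 had its highest mean among the ranked classes, made up 5.62% and 0.884% of R241E nuclei and 1.24%, 0.611% and 0.579% of WT nuclei. It held 50.9% of the Col5a2 UMIs and 30.6% of all collagen UMIs of R241E replicate 1, against 3.11% to 32.7% and 2.58% to 11.9% in the other libraries, and 0 Col3a1 UMIs in either R241E library. With cluster 16 and the pituitary-marked nuclei left out, a choice made after seeing the data, Col5a2 did not pass (log2 1.28, SE 0.24, adjusted p = 0.0586) and Col3a1 did (1.73, SE 0.20, adjusted p = 0.0255). Each class was then given 1 level, pooled over the UMIs of all libraries, and only class shares of each library's UMIs were kept. A pooled level leans towards libraries with more UMIs, and the R241E libraries held 724833 and 480429 of 1801020 fibroblast UMIs. Col5a2 came to 59.9 CPM in R241E and 24.7 CPM in WT, a log2 difference of 1.28 against 1.46 observed. Col3a1 came to 19.5 and 8.51 CPM, a log2 difference of 1.20 against 1.73 observed. Of the lists, Adamts2 alone passed (31.6 ± 4.6 against 12.1 ± 1.97 CPM), of 56 genes tested. Nuclei had been sorted, so these shares are those of the sorted pool. Neither Col3a1 nor Col5a2 passed without R241E replicate 1 (adjusted p = 0.146 and 0.137), R241E replicate 2 (0.184 and 0.101) or WT replicate 2 (0.106 and 0.0834), and Col3a1 did not pass without WT replicate 3 (0.0643).

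**Figure D5:**
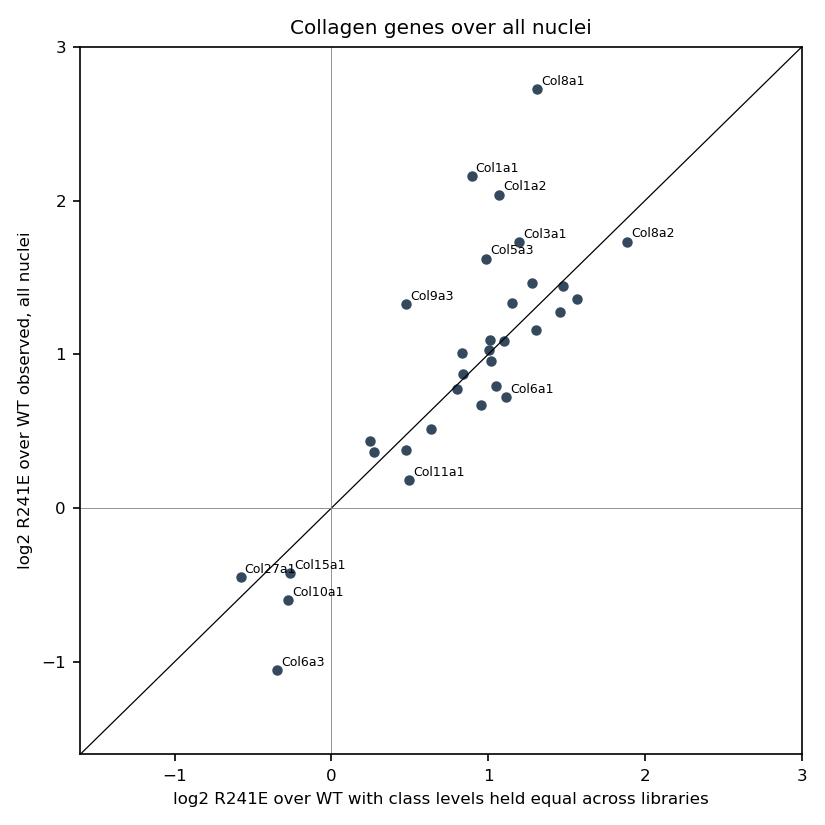
Observed log2 ratio of R241E to WT over all nuclei (vertical axis) against the log2 ratio with pooled class levels held equal across libraries (horizontal axis). On the horizontal axis only class shares of UMIs differ. There is 1 point per collagen gene with at least 100 UMIs and a diagonal of equal values. Points follow the diagonal on both sides of 0, with Col8a1 (2.73 observed, 1.31 from shares), Col1a1, Col1a2 and Col9a3 above it.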

How the data were processed

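The authors deposited unnormalised UMI counts per gene and nucleus for 5 libraries, made with Cell Ranger 7.0.0 against mm10 per the file headers; whether intronic reads were counted is not given in the sources used here. The submitters' processing notes also name Seurat. The study's limits on nuclei were applied (200 or more but under 4500 genes, under 10000 UMIs and under 5% mitochondrial UMIs), which kept 9505 of 9748 deposited barcodes. Nuclei were clustered without the collagen genes (scanpy 1.11.5; 3000 variable genes, 30 components, 20 neighbours, Leiden resolution 1). A cluster was named when at least 3 markers of a list were each found in 10% of its nuclei, the mean log2 fold over the list was 2 or more and that mean lay at least 0.25 above the next list's, thresholds set after the data were seen. No doublet caller was used in the main analysis, and an alternative dropped the 158 nuclei that Scrublet scored highest. UMIs were summed per library and class and tested with edgeR 4.0.16 (TMM scaling, filterByExpr, quasi-likelihood test, Benjamini-Hochberg adjustment over all genes tested, threshold 0.05) in R 4.3.3, with DESeq2 1.42.0 as an alternative. Class contrasts took the library as a block and needed 10 nuclei of each class per library, and genotype tests needed 20. Standard errors are the log2 fold change divided by the square root of the F statistic. Each library was 1 mouse, so genotype p-values within a class rest on the spread between these few mice, with information on spread shared across genes. In the class contrasts and the interaction the library block takes out differences between mice. Those p-values rest on how far the class difference varied from mouse to mouse. Intervals for shares and count ratios are exact binomial at 95%. Sequence windows came from RefSeq tables on GRCm38.p6.

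The members and the marker and pathway lists were chosen with earlier results of these data known. Named with values were members with at least 100 UMIs or called in a genotype test, and up to 5 called genes of each pathway list per contrast; other members were given by counts, and the few named beyond this were chosen after their values were seen. The tests recovered known changes in counts simulated for the fibroblast against mural contrast and the microglia genotype fit only. Those counts were drawn with a dispersion shared by all genes. The other fits were not simulated, so the simulation says nothing of members that did not pass in them. The genotypes were taken from the sample titles. Treatment text in the labels about aged mice given H151 or DMSO names no sample here and was not used.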

Additional observations from a re-analysis of the deposited data

Results flagged for a closer look

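The genotype difference of Col4a6, R241E against WT, differed between fibroblasts and mural cells by −2.25 on the log2 scale (SE 0.41, edgeR adjusted p = 0.00231), by a test of the interaction itself. It was −0.85 (SE 0.22) in fibroblasts, lower in R241E in 2 of 2 libraries than in any WT library, and 1.36 (SE 0.37) in mural cells, higher in 2 of 2. In the same libraries the pial-type share of fibroblasts was 34.7% and 46% with R241E and 70%, 59.7% and 54.8% with WT, without overlap, and the Slc47a1-type share was 62.3% and 38.7% against 30%, 25.4% and 40.9%. Their part in the result was tested only by the fit on pial-type nuclei, which gave −1.79 (adjusted p = 0.0811). In 4 of 12 alternatives the interaction did not pass, including this fit, DESeq2 and the fit without WT replicate 2. Mural cells held 152 Col4a6 UMIs over all libraries. Fibroblast markers summed to 1496 to 1655 CPM in R241E mural cells and to 1350 to 1717 CPM in WT mural cells, with Pdgfra and Bnc2 at 0.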

How the results depend on the processing

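Numbers of collagen genes called in the class contrasts kept within 1.5 times, except 3 in place of 6 between mural and endothelial cells without the replicate block. For genotype, fibroblasts gave 0, and 1 with no filter on low counts, 2 with the replicate block and 0 to 4 with a library left out. Oligodendrocytes gave 0, 1 with the block and 0 to 1 with a library left out. Neurons gave 0, 5 with no filter, 3 with the block and 0 to 1. Microglia gave 1, 2 with no filter, 3 with the block and 0 to 1. All nuclei gave 2, 9 by DESeq2, 7 with no filter, 3 with the block, 1 with cluster 16 and pituitary-marked nuclei left out (added after seeing the data) and 0 to 5. The interaction gave 1, 0 by DESeq2, 0 with pial-type nuclei and 0 to 2. The cause was not tested. The replicate numbers were not shown to pair mice of the 2 genotypes (correlations of deviations −0.137 to 0.239, 2 pairs). With the block, Col8a1 (adjusted p = 0.00155) and Col4a6 (0.0173) passed in fibroblasts, and over all nuclei Col1a1, Col1a2 and Col8a1 passed (0.0475 each) while Col3a1 (0.0634) and Col5a2 (0.0515) did not. Over all genes, the block moved the called counts from 1 to 103 in fibroblasts, 0 to 3 in mural cells, 33 to 193 in astrocytes, 16 to 73 in oligodendrocytes, 1 to 177 in neurons, 1179 to 2083 in microglia, 37 to 56 in border-associated macrophages, 3 to 11 in the pial-type and 422 to 196 in all nuclei; over all alternatives these counts spanned 0 to 535 in neurons and 0 to 1662 in all nuclei.

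Alternatives were run for every tested member in the class contrasts, but for genotype, the interaction included, only for members at an unadjusted p under 0.05. Among these, the directions that turned were those of members that were not called. Col5a3, fibroblasts against mural cells, gave −0.035 by DESeq2 and −0.18 to 0.28 with a library left out. Col4a2, fibroblasts against endothelial cells, gave 0.29 with no filter and −0.36 to 0.48. Between mural and endothelial cells, Col4a1 gave −0.089 without the replicate block and −0.17 to 0.33, and Col4a2 gave −0.047 without the block, −0.16 with no upper limits on nuclei and −0.017 to 0.56. Between the fibroblast clusters, Col11a1 gave 0.10 without the highest Scrublet scores and −0.18 to 0.26, and Col1a2 −0.13 to 0.13. Where a library was left out and an arm held 1 sample, that sample was assumed to vary like the others. The endothelial nuclei of the 4 libraries tested set a floor of 23.9 CPM, and the small number of 60 in all limits every statement on that class.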

Other observations

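Col20a1 and Col10a1, with 154 and 119 UMIs, had no class in which all libraries lay above the next class, their highest means being 16.6 CPM in pial-type fibroblasts and 6.06 CPM in microglia. The 54 pituitary-marked nuclei, 52 of them from R241E replicate 1, held 34 collagen UMIs.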
